A study of Mus musculus with 24 samples.

Results

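Transcripts recovered by an antibody against N6-methyladenosine (m6A) were compared with the unselected messenger RNA of the same animals in hippocampus of untreated wild-type mice. The members were chosen by their labels: the 4 m6A immunoprecipitation (IP) libraries and the 4 input libraries of the wild-type group, 8 of the 24 libraries of the study. The other 16 came from 5xFAD mice, a line with mutant human transgenes of familial Alzheimer's disease, APP among them, driven by the neuronal Thy1 promoter, given either vehicle or MS1262, named in the study's title as an inhibitor of the histone methyltransferase G9a. The wild-type mice are described as age matched and received neither agent, and their sex and age in weeks are not given in the labels used here. Each wild-type animal gave 1 tissue sample of whole hippocampus, so that neurons, glia and vessels were measured together.

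m6A, the commonest modification within messenger RNA, is written in the nucleus by a complex built on Mettl3 and Mettl14, removed by Fto and Alkbh5, and bound by reader proteins such as those of the YTH family; sites tend to lie in long internal exons, near stop codons and in 3′ untranslated regions. In the hippocampus the mark has been linked to the handling of synaptic transcripts and to memory. RNA of the mitochondrial genome is made inside the mitochondrion, apart from the nuclear writer complex. By the protocol, poly(A) RNA of each animal was split, 10% of 150 ng kept as input and the rest bound with a polyclonal antibody and eluted with free m6A, and both portions were amplified by the SMART-seq method. The series' design text speaks of total RNA, where the protocol and the labelled molecule are poly(A) RNA, and the latter was followed here. No library made with a control antibody was analysed here, so the background of the IP is known only through the input.

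The input libraries held 38.0, 40.7, 23.3 and 43.2 M estimated counts (M, megacounts) and the IP libraries 17.2, 48.6, 10.6 and 21.3 M for animals 1 to 4. Markers of excitatory neurons (Neurod6, 548 to 794 CPM in input, CPM being counts scaled to library size), dentate gyrus (Prox1, 27.5 to 58.0) and CA1 (Fibcd1, 14.2 to 27.2) were present in every library. The other dentate gyrus markers looked at, Dsp and C1ql2, stood at 6.60 to 20.5 and 1.02 to 2.31 CPM in input. The other CA1 markers, Wfs1 and Pou3f1, stood at 38.9 to 49.5 and 5.21 to 7.54 CPM. Of 3 striatal markers Adora2a was at most 0.0927 CPM in input, while Drd1 (2.94 to 6.12 CPM) and Drd2 (0.472 to 1.72 CPM) were detected in every input. Ttr, a choroid plexus gene, stood at 730 CPM in the input and 598 in the IP of animal 3, against 31.7 to 60.2 in the other inputs, and Tcf7l2, a thalamic gene, at 90.4 CPM in the input of animal 4, against 12.7 to 25.4. In bulk tissue more cells of a type and more RNA per cell cannot be told apart. Among the 5xFAD libraries, used only for the last comparison, vehicle animal 4 stood apart. Over 9136 genes its log2 ratio of IP to input differed from the median of the 12 animals by 0.50 at the median gene, against 0.08 to 0.18 in the other 11. Both libraries of an animal come from the same RNA, and the comparisons below were made within animals.

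Of 16483 genes tested, 7205 (43.7%) differed between IP and input at an edgeR adjusted p below 0.05. In the IP 3680 genes (22.3%) were higher and 3525 (21.4%) lower, and 6955 (42.2%) passed with the same sign in all 4 animals. Of the 9046 genes with a mean log2 CPM of at least 3, 5610 (62.0%) passed. The shares over all genes are thus a low baseline for lists of well expressed genes. Most differences were modest: 900 genes (5.46%) were at least 2-fold higher and 446 (2.71%) at least 2-fold lower. The median input was 3.77 CPM for the 900 and 20.97 CPM for the 446. Of their protein-coding genes, 388 of 816 higher and 219 of 307 lower had a mean log2 CPM of at least 3. Genes of low input could pass the filter on low values through their IP libraries, which favours a higher ratio. These ratios are relative, because the scaling (trimmed mean of M values, TMM) sets the typical gene near 0, with a median log2 ratio of 0.01. Without that scaling the median moved to 0.21 and the calls split into 5518 higher and 2138 lower, and on the log2(TPM + 1) scale, where TPM is transcript abundance with length taken into account, it moved to 0.38 with 8087 higher and 584 lower. Set against the median of all genes, the medians of 33 of 41 gene lists kept their sign with library size alone, log2(TPM + 1) and log2(TPM + 0.1). The other 8 lay within 0.17 of that median. These were translation factor, interneuron, immediate early, m6A reader, brain noncoding, endoplasmic reticulum chaperone, Bcl2 family and reference genes. Not set against it, more medians turned on log2(TPM + 1), among them those of interneuron (−0.16 to 0.39) and choroid plexus genes (−0.19 to 0.24). Named genes that turned, and some of the lists, are given below or with the processing alternatives.

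**Figure D1:**
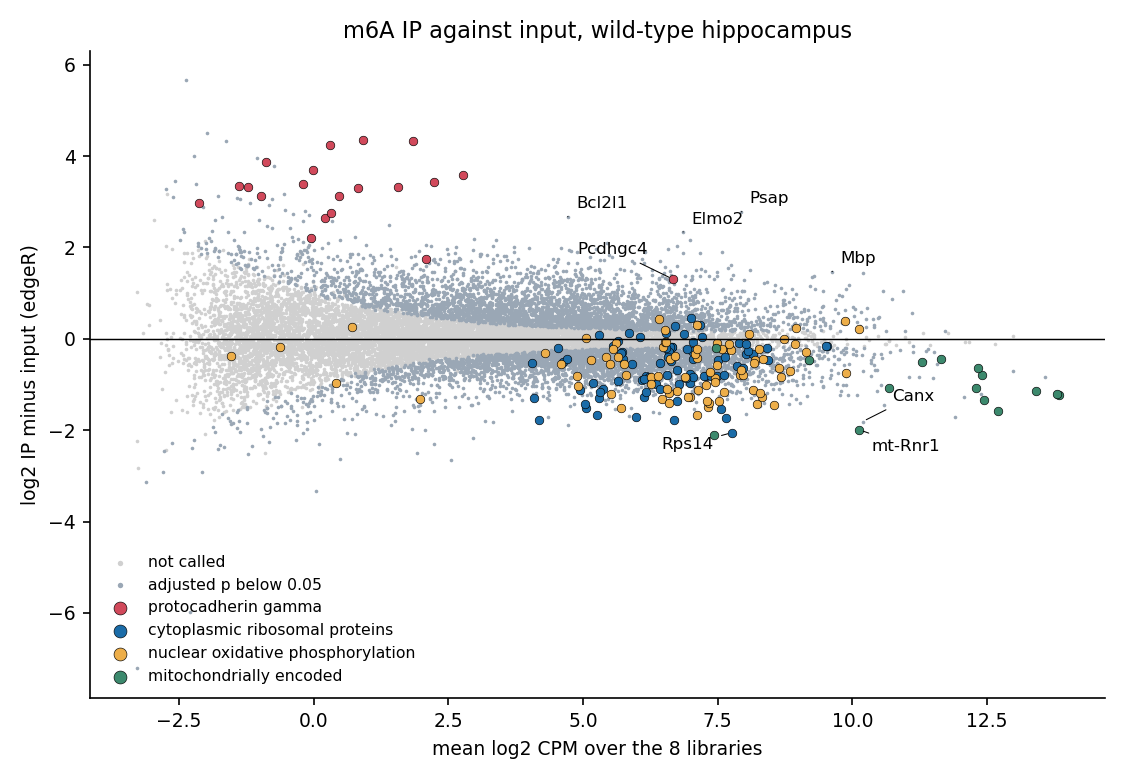
Log2 ratio of IP to input (edgeR, y axis) against mean log2 CPM of the 8 wild-type libraries (x axis), 1 point per gene tested. All 20 protocadherin gamma genes lie above 0 and all 15 mitochondrially encoded genes below it, and most ribosomal protein and oxidative phosphorylation genes lie below it.

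The highest ratio among well measured genes (mean log2 CPM of at least 3) belonged to Psap (chr10:60277628-60302600, GRCm38), which encodes prosaposin, the precursor of the saposins that activate sphingolipid breakdown in the lysosome. Its level was 87.7, 118, 75.7 and 98.8 CPM in the inputs of animals 1 to 4 and 417, 798, 718 and 725 CPM in their IPs. Every IP value was thus far above every input value, a 6.87-fold ratio (log2 2.78, SE 0.12, edgeR adjusted p = 3.03e-10). Bcl2l1 (chr2:152758732-152833803) encodes the apoptosis inhibitor Bcl-xL. It measured 12.2, 13.3, 8.02 and 8.80 CPM in input and 66.0, 69.8, 66.6 and 65.0 CPM in IP, a 6.38-fold ratio (log2 2.67, SE 0.11, edgeR adjusted p = 3.03e-10), and its 4 IP values differed less from each other than its inputs did. The Bcl2 family list, Bcl2l1 included, gave 6 of 15 genes higher (40.0%, against 22.3% of all genes) and 4 lower (26.7%, against 21.4%). Its median was 0.15. The higher count fell to 3 without animal 1, 3 or 4 and to 1 without the animal as a block. Mcl1, another survival gene of the family, had a log2 ratio of −0.47 (SE 0.09, edgeR adjusted p = 0.000358). On the log2(TPM + 1) scale it turned to 0.08, below that scale's median over all genes of 0.38.

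Elmo2 (chr2:165288031-165326479), a partner of the Dock exchange factors that activate Rac, followed with 48.9, 64.0, 41.4 and 54.1 CPM in input and 262, 252, 243 and 290 CPM in IP. This was a 5.06-fold ratio (log2 2.34, SE 0.09, edgeR adjusted p = 3.03e-10) with no overlap. Dusp8, a phosphatase of MAP kinases, had a log2 ratio of 2.17 (SE 0.12) and L3mbtl2, a Polycomb group protein gene, 2.09 (SE 0.12). The others among the 12 highest were the organic anion transporter gene Slco2b1 (2.04), Slc7a4 (2.02), the collagen lysyl hydroxylase gene Plod1 (2.00), the adhesion receptor gene Adgrg1 (1.99), the lysophospholipase gene Pnpla7 (1.98), the translocon subunit gene Sec61a1 (1.98) and the G protein gamma subunit gene Gng7 (1.97). All 12 passed with edgeR adjusted p of at most 2.91e-08 and were higher in 4 of 4 animals.

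At the other end, 6 of the 11 genes reported here among the 12 lowest are transcripts of the mitochondrial genome or of cytoplasmic ribosomal proteins. mt-Nd3, a complex I subunit gene of the mitochondrial genome, measured 354, 348, 417 and 330 CPM in input and 136, 66.4, 67.8 and 80.3 CPM in IP (log2 −2.10, SE 0.14, edgeR adjusted p = 1.02e-08). Rps14, a protein of the small ribosomal subunit, measured 444, 514, 455 and 375 CPM in input and 152, 107, 76.1 and 104 CPM in IP, a log2 ratio of −2.05 (SE 0.12, edgeR adjusted p = 3.61e-09). In both, the largest depletion was that of animal 3 and the smallest that of animal 1. Further ribosomal protein genes among the 12 lowest were Rps28 (−1.78), Rplp1 (−1.78) and Rps29 (−1.71), beside the mitochondrial ribosomal RNA mt-Rnr1 (−1.99). Dpm3, a subunit gene of dolichol phosphate mannose synthase (−1.79), Gng5, a G protein gamma subunit gene (−1.71), and Mgst3, a microsomal glutathione transferase gene (−1.68), also have short transcripts, of 0.08, 0.16 and 0.38 times the length of the median gene.

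Canx and Pcdha4, also among these 11, have transcripts longer than that of the median gene. Canx (chr11:50293957-50325673), which encodes the endoplasmic reticulum chaperone calnexin, measured 2341, 1759, 2286 and 2411 CPM in input and 617, 601, 609 and 659 CPM in IP. That is a 3.51-fold lower level in the IP (log2 −1.81, SE 0.07, edgeR adjusted p = 3.03e-10), with no overlap, for a transcript 1.54 times the median length. The 2 gamma subunit genes show how far members of a family can part: Gng7 rose from 32.7 to 66.9 CPM in input to 151 to 258 CPM in IP, and Gng5 fell from 33.0 to 42.0 CPM to 7.48 to 17.1 CPM. IP and input did not overlap in any of the 23 genes examined here among those with the largest ratios, against 31.6% of all genes tested, a share that their choice by size and sign makes large.

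**Figure D2:**
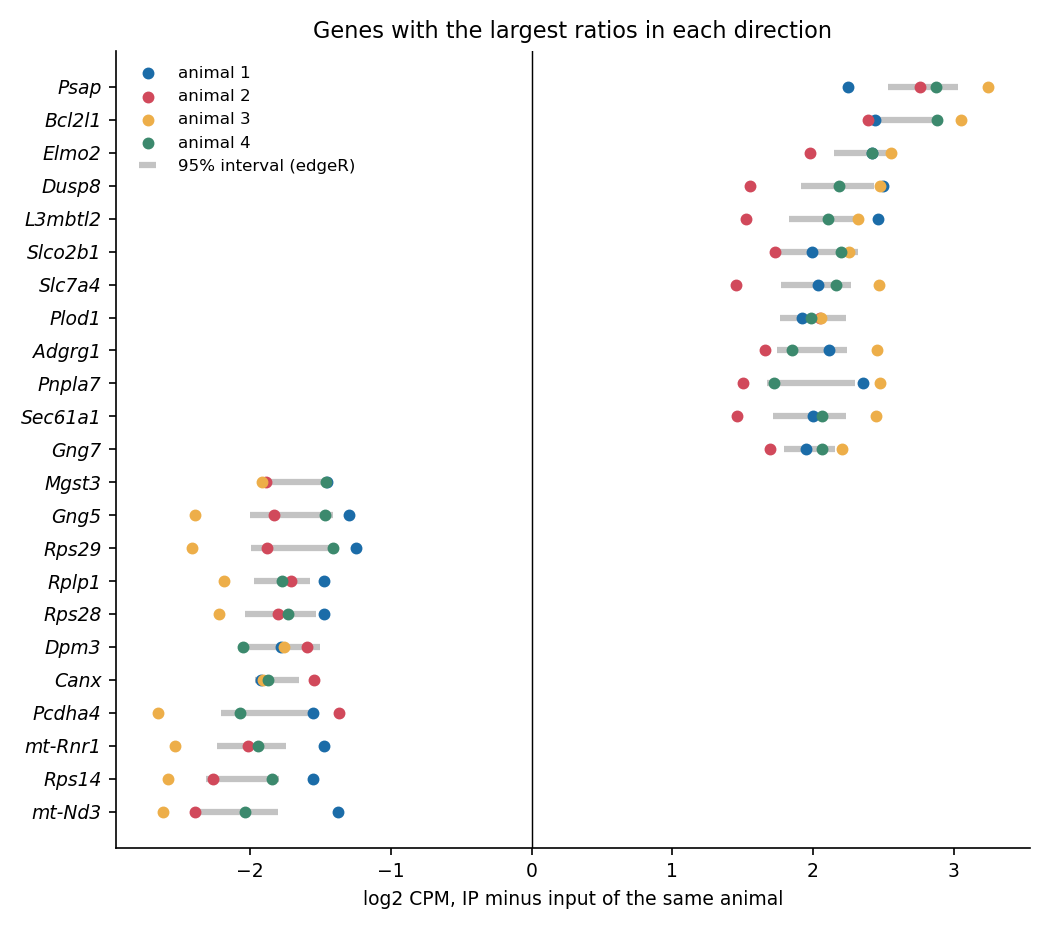
Log2 CPM of IP minus input within each animal (points, x axis) for the 12 genes with the highest ratios and those reported of the 12 with the lowest, with the 95% interval of the edgeR fit as a bar. All animals lie on the same side of 0 for each gene, which was a condition of the choice, and animal 3 is often the farthest from 0.

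All 15 mitochondrially encoded genes tested were lower in the IP, with a median log2 ratio of −1.08 against 0.01 for all genes. The count was 12 in the fit over all 24 libraries and 8 on the TPM scales, where the median was −0.52. The 2 ribosomal RNAs were among the most depleted: mt-Rnr1 fell from 2011 to 2735 CPM in input to 473 to 760 CPM in IP, and mt-Rnr2 had a log2 ratio of −1.58 (SE 0.09). Among the protein-coding genes the ratios ran from −2.10 for mt-Nd3 to −0.19 for mt-Nd4l (SE 0.07, edgeR adjusted p = 0.0410), which was lower in only 3 of 4 animals, did not pass without animal 2, 3 or 4, and stood at 0.37 on the log2(TPM + 1) scale. mt-Co1, a catalytic subunit gene of cytochrome oxidase, lay at −1.20, mt-Cytb at −1.14, mt-Nd5 at −0.45 and mt-Nd6, the only protein gene on the light strand, at −0.46. On the log2(TPM + 1) scale mt-Nd5 and mt-Nd6 turned to 0.11 and 0.10, below that scale's median over all genes of 0.38. Together the mitochondrial genome took 10.8, 10.0, 11.8 and 9.99% of the counts of the input libraries of animals 1 to 4, and 7.17, 5.35, 5.18 and 5.09% of those of their IPs. The mean fell from 10.7% ± 0.854 to 5.70% ± 0.987 (SD, n = 4) in 4 of 4 animals (exact paired permutation test, 2-sided, p = 0.125, the smallest that 4 pairs allow).

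Nuclear genes of the same respiratory chain were depleted as well. Of 81 nuclear oxidative phosphorylation genes 60 were lower (74.1%, against 21.4% of all genes) and 5 higher (6.17%, against 22.3%), with a median of −0.64. Atp5md, a small subunit gene of ATP synthase, measured 311, 281, 281 and 212 CPM in input and 123, 94.2, 78.0 and 91.1 CPM in IP (log2 −1.49, SE 0.09, edgeR adjusted p = 4.61e-09). Each IP value lay below every input value. Cox7c, of cytochrome oxidase, had a log2 ratio of −1.44 (SE 0.09), and Ndufa3 and Ndufc1, of complex I, −1.52 (SE 0.10) and −1.35 (SE 0.09). The share of counts of this class fell from 1.81% ± 0.127 to 1.44% ± 0.0900 (SD, n = 4; exact paired permutation p = 0.125).

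Of 82 cytoplasmic ribosomal protein genes 61 were lower in the IP (74.4%, against 21.4% of all genes), 3 higher (3.66%, against 22.3%) and 18 not called, with a median of −0.53. Their share of counts fell from 1.22% ± 0.0914 to 0.978% ± 0.105 (SD, n = 4; exact paired permutation p = 0.125) in 4 of 4 animals. Ribosomal proteins have many processed pseudogenes, which makes the assignment of their reads less certain. Mitochondrial ribosomal protein genes, which are made in the nucleus, leaned the same way but were more mixed, with 35 of 77 lower, 11 higher and a median of −0.15. Mrpl42 (−1.53, SE 0.09) and Mrps14 (−1.15, SE 0.07) had the smallest p. Proteasome subunit genes were likewise divided: 20 of 39 were lower, led by the catalytic subunit gene Psmb6 (−1.19, SE 0.08), 5 were higher, and the median was −0.20. Translation initiation and elongation factor genes did not follow the ribosomal proteins, with 24 of 65 higher, 20 lower and a median of 0.02. On the log2(TPM + 1) scale the medians of the ribosomal protein and oxidative phosphorylation genes remained below 0, at −0.07 and −0.10, and those of the mitochondrial ribosomal protein and proteasome genes turned to 0.30 and 0.36; relative to the median of all genes on that scale all 4 lay lower, at −0.45, −0.48, −0.07 and −0.02.

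**Figure D3:**
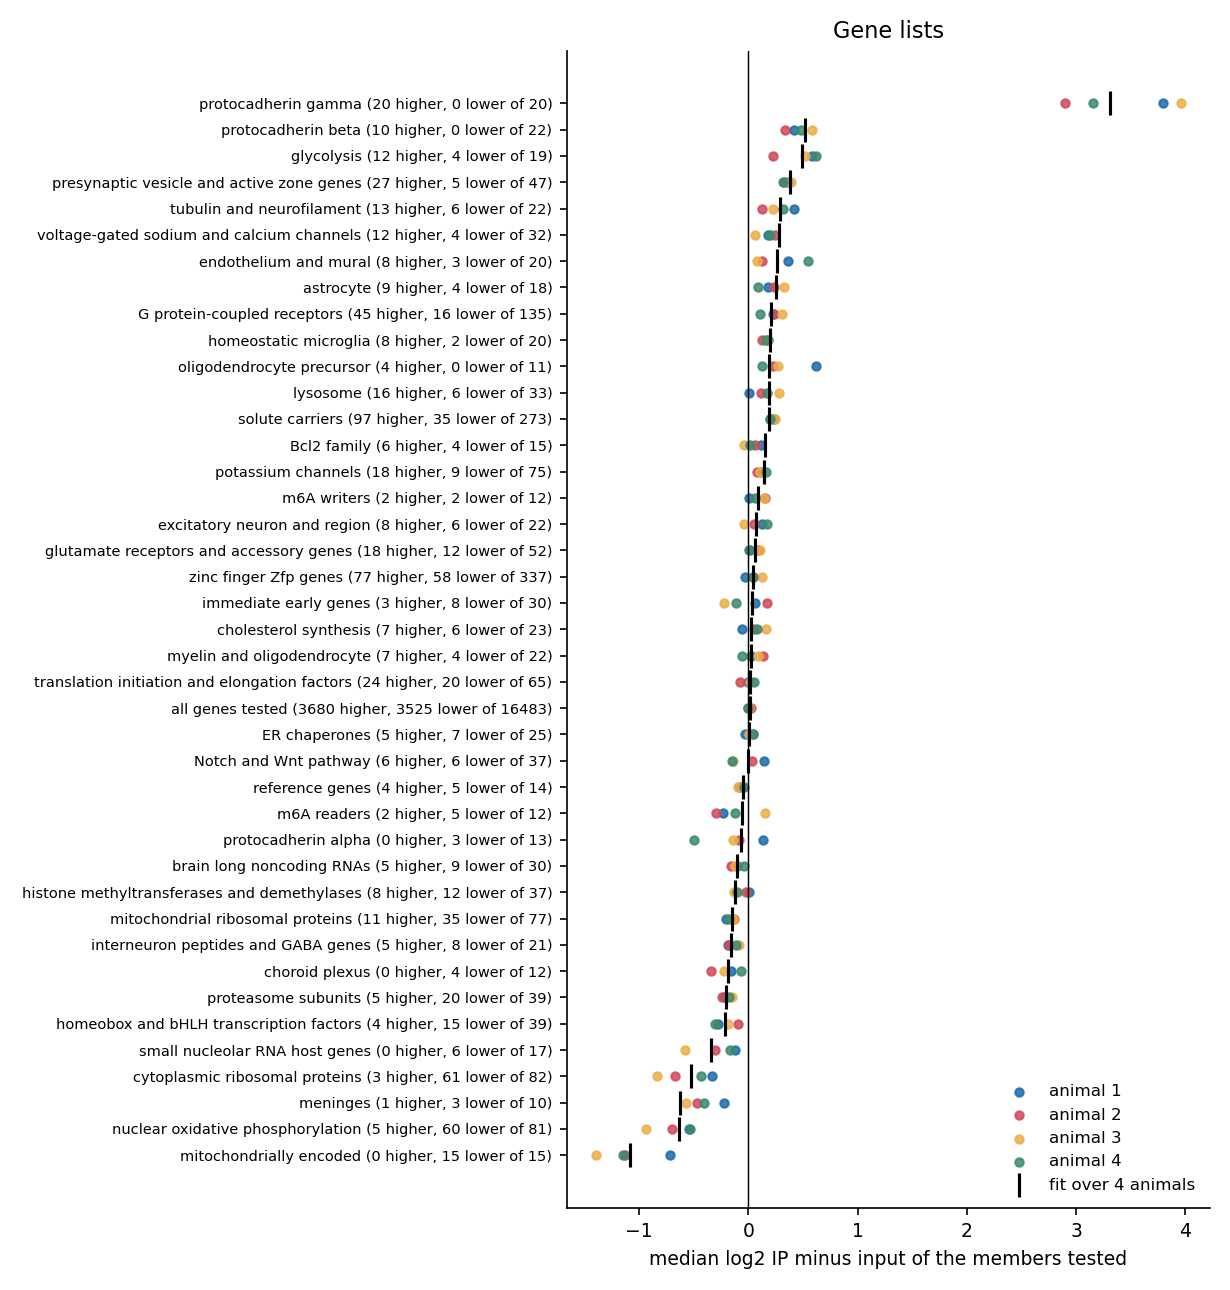
Median log2 ratio of IP to input over the tested members of each gene list (x axis), for each animal (points) and for the fit over 4 animals (black bars), with the number of members called in each direction. The protocadherin gamma genes stand at 3.31 and the mitochondrially encoded genes at −1.08.

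The clustered protocadherins, cell adhesion genes whose variable first exons give each neuron its own combination of surface proteins, were divided by cluster. All 20 protocadherin gamma genes tested were higher in the IP, with a median log2 ratio of 3.31. The filter on low values bears on this count: only 6 of the 20 reached its minimum in all 4 inputs, so 14 were tested with the help of their IP libraries, where they are high, which favours a higher ratio. Of 22 beta genes 10 were higher (45.5%, against 22.3% of all genes) and none lower. Their median was 0.52, and 4 were higher without the animal as a block. Of 13 alpha genes none was higher and 3 were lower, with a median of −0.07. The share of alpha genes lower, 23.1%, was near the 21.4% of all genes. Gamma and alpha transcripts share constant exons within their cluster, so the split of reads among members is uncertain. The sum over a cluster is less exposed to this. Over 21 gamma genes it was 76.7, 84.5, 64.4 and 67.0 CPM in input and 350, 292, 283 and 310 CPM in IP, before TMM scaling. The ratio of the means was 4.22, with every IP above every input (exact paired permutation p = 0.125). For 22 beta genes the sum went from 202 CPM ± 19.5 to 280 CPM ± 18.1 and for 13 alpha genes from 198 CPM ± 25.6 to 171 CPM ± 12.3 (SD, n = 4).

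Single gamma genes were scarce in input and plentiful in IP. Pcdhgc3 measured 0.986, 0.779, 0.422 and 0.986 CPM in input and 17.5, 16.7, 18.8 and 14.1 CPM in IP (log2 4.34, SE 0.21, edgeR adjusted p = 9.64e-10). Pcdhgc5 measured 1.55 to 2.51 CPM in input and 19.7 to 28.9 CPM in IP (log2 3.59, SE 0.15). Pcdhgc4, which held most counts of the cluster in input, with 57.3 to 73.2 CPM in input and 146 to 180 CPM in IP, had the lowest ratio of the cluster (log2 1.31, SE 0.09, edgeR adjusted p = 8.46e-09). With a pseudocount of 1 on TPM the median of the gamma genes shrank to 1.07, since most had low values. Pcdha4, of the alpha cluster, went the other way, with 36.0, 46.0, 82.9 and 50.2 CPM in input and 12.3, 17.8, 13.1 and 11.9 CPM in IP (log2 −1.88, SE 0.15, edgeR adjusted p = 7.64e-08).

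Among long noncoding RNAs, 57 of 937 were higher (6.08%, against 22.3% of all genes) and 87 lower (9.3%, against 21.4%). The class took nearly the same share of counts in both fractions (0.821% ± 0.0347 and 0.827% ± 0.0356, SD, n = 4). Among noncoding genes with a mean log2 CPM of at least 3, predicted genes passed over, Peg13 (chr15:72805602-72810324), an imprinted brain transcript, had the highest ratio, with 53.4, 64.8, 63.9 and 66.7 CPM in input and 176, 173, 195 and 201 CPM in IP (log2 1.58, SE 0.07, edgeR adjusted p = 7.04e-10). The X-linked nuclear transcript Firre (1.03, SE 0.11) and the imprinted Rian (0.62, SE 0.08) followed within these limits, outside which noncoding genes reached a log2 ratio of 3.38. Malat1 (chr19:5795690-5802672), an abundant transcript of nuclear speckles, was lower, with 678, 452, 493 and 684 CPM in input and 309, 286, 232 and 349 CPM in IP (log2 −0.96, SE 0.08, edgeR adjusted p = 7.29e-08). Xist, which silences an X chromosome in females, did not pass (log2 0.17, SE 0.09, edgeR adjusted p = 0.115), nor did Meg3, neighbour of Rian (0.02, SE 0.07, edgeR adjusted p = 0.841). Without TMM scaling Xist (0.37) and Meg3 (0.22) passed as higher, but there the median of all genes was 0.21. Of 17 small nucleolar RNA host genes 6 were lower (35.3%, against 21.4% of all genes) and none higher (median −0.34). Among the lower was Snhg8 (−1.98, SE 0.26), which has a transcript of 0.09 times the median length. In the list of 30 brain noncoding genes 5 were higher (16.7%, against 22.3%) and 9 lower (30.0%, against 21.4%). The lower ones included a host gene of miR-124, Mir124-2hg (−0.78, SE 0.08), and Pantr1 (−0.69, SE 0.07). On the log2(TPM + 1) scale the median of the small nucleolar RNA host genes turned to 0.19 and that of the brain list to 0.40. Relative to the median of all genes they stood at −0.19 and 0.02 there, against −0.35 and −0.12 in the main fit.

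Presynaptic genes were more often higher than lower in the IP. Of 47 presynaptic vesicle and active zone genes 27 were higher (57.45%, against 22.3% of all genes) and 5 lower (10.6%, against 21.4%), with a median of 0.38. Stx1a, a SNARE protein of the presynaptic membrane, rose in each animal, from 17.7, 31.0, 34.5 and 14.7 CPM to 61.0, 79.0, 149 and 46.8 CPM (log2 1.72, SE 0.11, edgeR adjusted p = 4.68e-09), and its IP levels followed its input levels across animals. Nsf, the ATPase that takes SNARE complexes apart, rose from 862 to 1187 CPM to 1909 to 2487 CPM (log2 1.04, SE 0.07). The vesicular glutamate transporter gene Slc17a7 (0.86, SE 0.08) was higher too.

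Glutamate receptor genes went both ways, with 18 of 52 higher (34.6%, against 22.3% of all genes), 12 lower (23.1%, against 21.4%) and a median of 0.06. Grin1, the obligatory subunit of the NMDA receptor, was higher in the IP, with 6.61 to 8.43 CPM in input and 23.4 to 27.6 CPM in IP (log2 1.76, SE 0.12, edgeR adjusted p = 1.09e-08). Grin2a, which encodes a subunit that pairs with it, was lower, with 721 to 1355 CPM in input and 393 to 610 CPM in IP (log2 −1.06, SE 0.07, edgeR adjusted p = 7.85e-09). Homer1, a scaffold of metabotropic receptors, was lower as well, at −0.84 (SE 0.07). Voltage-gated sodium and calcium channel genes gave 12 of 32 higher and 4 lower, with the auxiliary subunit genes Scn2b (−0.98, SE 0.07) and Cacna2d1 (−0.84, SE 0.07) at the low end. Potassium channel genes gave 18 of 75 higher, a share near the 22.3% of all genes, and 9 lower. The share higher was 33.3% for G protein-coupled receptor genes (45 of 135, with 16 lower) and 35.5% for solute carrier genes (97 of 273, with 35 lower). Adgrl1, a latrophilin gene (1.39, SE 0.07), the muscarinic receptor gene Chrm1 (1.00, SE 0.07) and the amino acid transporter gene Slc38a3 (1.62, SE 0.11) were among the higher ones.

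Glycolytic, cytoskeletal and lysosomal genes, whose median transcript lengths were 0.77 to 1.08 times that of the median gene, were more often higher than lower. Of 19 glycolysis genes 12 were higher (63.2%, against 22.3% of all genes) and 4 lower (21.05%, against 21.4%), with a median of 0.49. Hexokinase 1 (Hk1) had a log2 ratio of 1.30 (SE 0.08), pyruvate kinase (Pkm) 1.04 (SE 0.08) and the neuronal enolase Eno2 0.72 (SE 0.07), while the brain aldolase Aldoc fell by 0.83 (SE 0.06), from 2956 to 3471 CPM in input to 1646 to 2046 CPM in IP. Of 22 tubulin and neurofilament genes 13 were higher (59.1%) and 6 lower (27.3%), with Tubb2b at 1.75 (SE 0.13), Tubb3 at 1.09 (SE 0.08), Tubb4a at 1.08 (SE 0.07) and Mapt, which encodes tau, at 1.03 (SE 0.08). Lysosomal genes, Psap among them, were 16 of 33 higher (48.5%) and 6 lower (18.2%), with 9 higher without animal 4. The protease gene Ctsd had 1.23 (SE 0.09), and the membrane protein genes Cd63 and Lamp1 were lower at −0.91 (SE 0.08) and −0.89 (SE 0.09).

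Most lists of cell type markers held genes called in each direction, while oligodendrocyte precursor and choroid plexus genes were called in a single direction. Of 18 astrocyte genes 9 were higher (50.0%, against 22.3% of all genes) and 4 lower (22.2%, against 21.4%). Aldh1l1 rose from 26.8 to 32.0 CPM to 70.0 to 92.2 CPM (log2 1.43, SE 0.08) and the transcription factor gene Sox9 fell from 88.4 to 136 CPM to 46.7 to 61.2 CPM (log2 −1.13, SE 0.08). Of 20 microglial genes 8 were higher (5 without animal 4) and 2 lower, with the receptor genes Csf1r at 1.59 (SE 0.12) and Cx3cr1 at 1.27 (SE 0.10). Oligodendrocyte precursor genes gave 4 of 11 higher and none lower, with Pdgfra at 1.16 (SE 0.08). Of 22 myelin genes 7 were higher and 4 lower. Mbp, a main myelin protein gene, rose from 389 to 544 CPM to 1127 to 1447 CPM (log2 1.47, SE 0.06, edgeR adjusted p = 3.03e-10). Vascular genes gave 8 of 20 higher and 3 lower, with Vtn at 1.18 (SE 0.10) and Rgs5 at −0.89 (SE 0.10). Markers of excitatory neurons gave 8 of 22 higher and 6 lower, those of interneurons 5 of 21 and 8, choroid plexus 0 of 12 and 4, and meninges 1 of 10 and 3. Camk2a, an abundant kinase gene of excitatory synapses, was higher (0.63, SE 0.08, edgeR adjusted p = 5.40e-06), though its IP range of 970 to 1731 CPM overlapped its input range of 596 to 1018 CPM.

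Of 26 transcripts of the m6A machinery 5 were higher (19.2%, against 22.3% of all genes) and 8 lower (30.8%, against 21.4%). Both demethylase genes passed, in opposite directions. Fto (chr8:91313367-91668433) measured 162, 204, 122 and 175 CPM in input and 392, 351, 382 and 478 CPM in IP (log2 1.28, SE 0.10, edgeR adjusted p = 7.08e-08). Alkbh5 (chr11:60537683-60558512) measured 35.0, 22.3, 33.4 and 28.3 CPM in input and 21.3, 15.4, 20.1 and 17.6 CPM in IP (log2 −0.67, SE 0.10, edgeR adjusted p = 2.65e-05). On the log2(TPM + 1) scale it stood at 0.02, below that scale's median over all genes of 0.38. Of 12 writer genes Virma (0.71, SE 0.08) and the catalytic subunit gene Mettl3 (0.41, SE 0.11, edgeR adjusted p = 0.00653) were higher, and Zc3h13 (−0.64, SE 0.09) and Wtap (−0.39, SE 0.10) lower. Wtap turned to 0.14 on the log2(TPM + 1) scale, also below that median, and the Mettl3 call ended without animal 4 (edgeR adjusted p = 0.0768). Mettl14 did not pass (0.12, SE 0.12, edgeR adjusted p = 0.473). Among 12 reader genes, Ythdf2 (−1.02, SE 0.09), Fmr1 (−0.98, SE 0.08), Ythdc1 (−0.82, SE 0.09), Ythdf3 (−0.68, SE 0.08) and Ythdf1 (−0.48, SE 0.09) were lower. Hnrnpa2b1 (0.52, SE 0.07) and Prrc2a (1.72, SE 0.29) were higher, Prrc2a from a mean input of only 1.21 CPM. Ythdf1 stood at 0.07 on the log2(TPM + 1) scale, below the median of all genes there.

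Several genes in common use as references differed between fractions. Ywhaz (−0.83, SE 0.06), Hprt (−0.60, SE 0.07) and Rpl13a (−0.59, SE 0.09) were lower. Actb was lower by less (−0.27, SE 0.07, edgeR adjusted p = 0.00434) and turned to 0.31 on the log2(TPM + 1) scale, below that scale's median of 0.38. Gapdh did not pass (0.03, SE 0.09, edgeR adjusted p = 0.826). Of the 14 reference genes 4 were higher (28.6%, against 22.3% of all genes) and 5 lower (35.7%, against 21.4%). Among the 5 genes of highest mean CPM whose 95% interval lay within 0.25 of 0 were Snap25 (0.06, SE 0.07), Hspa8 (−0.11, SE 0.06) and Gpm6a (−0.07, SE 0.06), all expressed in brain. Of these, Hspa8 and Gpm6a lay at 0.51 and 0.49 on the log2(TPM + 1) scale, above that scale's median of 0.38. Among other genes of neuronal interest, Map2 was higher (0.30, SE 0.06, edgeR adjusted p = 0.00126), App lower (−0.42, SE 0.07, edgeR adjusted p = 9.76e-05) and Arc not called (−0.01, SE 0.14, edgeR adjusted p = 0.966). App stood at 0.03 on the log2(TPM + 1) scale, below that scale's median.

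The remaining lists gave smaller or divided counts, to be read beside the 22.3% of all genes higher and 21.4% lower. Of 39 homeobox and bHLH transcription factor genes 15 were lower and 4 higher, with a median of −0.21. The number lower was 8 without the animal as a block, 7 with library size alone and 4 on the TPM scales. The median was −0.02 with library size alone and 0.25 on log2(TPM + 1). Relative to the median of all genes it was −0.22 in the main fit, −0.23 with library size alone and −0.13 on log2(TPM + 1). Histone methyltransferase and demethylase genes gave 12 of 37 lower (32.4%) and 8 higher (21.6%), and immediate early genes 8 of 30 lower (26.7%) and 3 higher (10.0%). Zfp zinc finger genes gave 77 of 337 higher (49 without animal 4) and 58 lower, and replication histone genes 2 of 9 higher. Their shares higher, 22.85% and 22.2%, were near that of all genes. Endoplasmic reticulum chaperone genes gave 5 of 25 higher and 7 lower, cholesterol synthesis genes 7 of 23 and 6, Notch and Wnt pathway genes 6 of 37 and 6, and blood genes 0 of 5 and 2.

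Transcript length and input level varied with the ratio across genes. Length was taken as the estimated count divided by TPM in the input libraries, relative to the median gene. In the shortest decile of genes, up to 0.30 times the median length, the median log2 ratio was −0.35, with 4.92% of genes higher and 35.8% lower. From the fourth to the ninth decile the median lay between 0.07 and 0.10, and in the longest decile it was −0.01, with 25.2% higher and 29.5% lower. The ribosomal, oxidative phosphorylation and mitochondrially encoded genes made up 165 of the 1646 shortest genes. These 165 had a median of −0.695, with 78.8% lower and 3.03% higher. The other 1481 had a median of −0.32, with 31.0% lower and 5.13% higher. Of the 446 genes at least 2-fold lower in the IP, 178 (39.9%) were in the shortest decile, against 25 (2.78%) of the 900 at least 2-fold higher. The 2 sets differed in input level too, with medians of 20.97 and 3.77 CPM. Length and ratio had a Spearman correlation of 0.136 over 16457 genes, and from 0.0721 to 0.136 within single animals, given as a description, since genes are not replicates and length rests on the same input libraries as the ratio.

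By input level per length (mean TPM of the 4 inputs), the median log2 ratio went from 0.06 in the fourth decile to −0.29 in the highest. It was 0.37 in the lowest, but there 1078 of 1649 genes (65.4%) did not reach the minimum of the filter in all 4 inputs and were tested through the IP libraries in part, which favours a positive ratio; in the fourth decile and above this held for at most 4.25% of genes. In the highest decile, above 62.2 TPM, 58.5% of genes were lower and 15.7% higher. The Spearman correlation was −0.266 over 16483 genes, with the input level in both quantities. The 100 genes with the highest input mean took 30.2% ± 0.708 of input counts and 22.9% ± 0.840 of IP counts (SD, n = 4), lower in 4 of 4 animals (exact paired permutation p = 0.125). On the log2(TPM + 1) scale the median of the shortest decile turned to 0.11, below that scale's median over all genes. The part of length, level and m6A in each other's pattern was not tested.

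**Figure D4:**
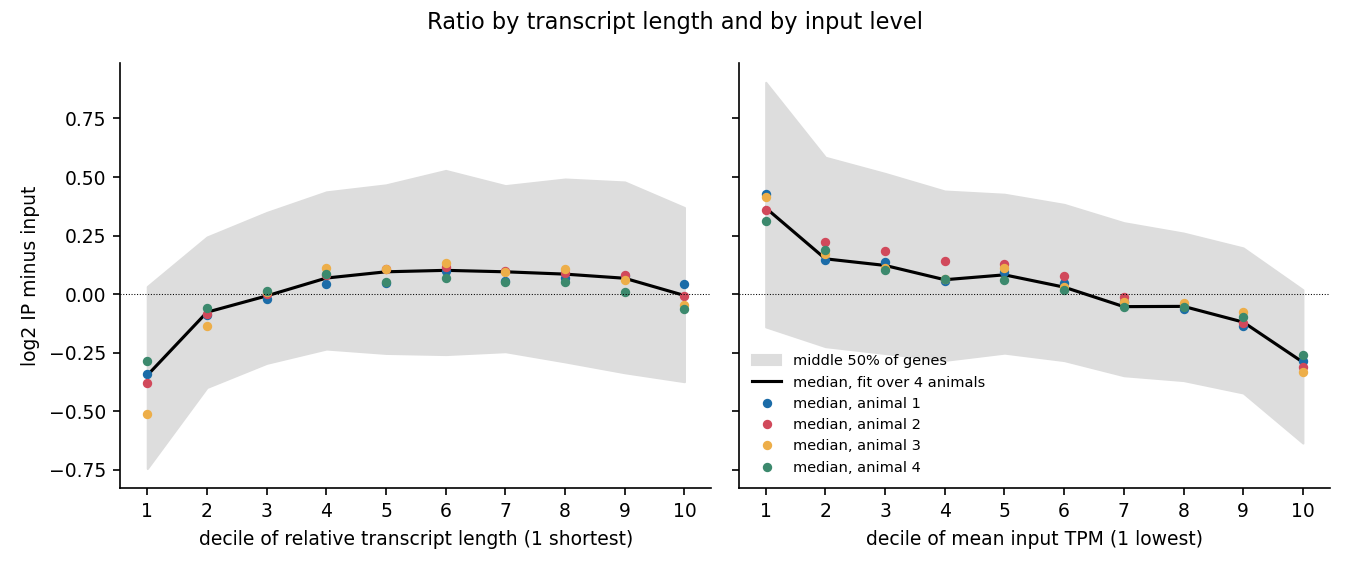
Median log2 ratio of IP to input (y axis) in deciles of genes by relative transcript length (left) and by mean input TPM (right), for the fit over 4 animals (line) and each animal (points), with the middle 50% of genes shaded. The shortest decile lies at −0.35 and the decile of highest input level at −0.29.

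The authors' peak lists, made from the same libraries, show where along the genes the IP signal exceeded the input. MACS2 had been run for each animal and gave 3534, 5004, 4115 and 4410 peaks, with a median fold over background of 1.75 to 2.07 by the authors' values. Merged over animals these made 7899 peaks, of which 1377 (17.4%) were found in all 4. Of 1034 shared peaks whose summit lay within a single protein-coding gene of RefSeq, 38.7% fell in the last 10% of the gene and 5.80% in the first 10%. Of 2821 peaks found in 1 animal only, more lay at the end, 46.0% in the last 10% of the gene and 23.5% within 1000 bases of its 3′ end, against 9.19% of shared peaks within that distance. Introns count in this position, so it is a place in the gene and not in the mature transcript.

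**Figure D5:**
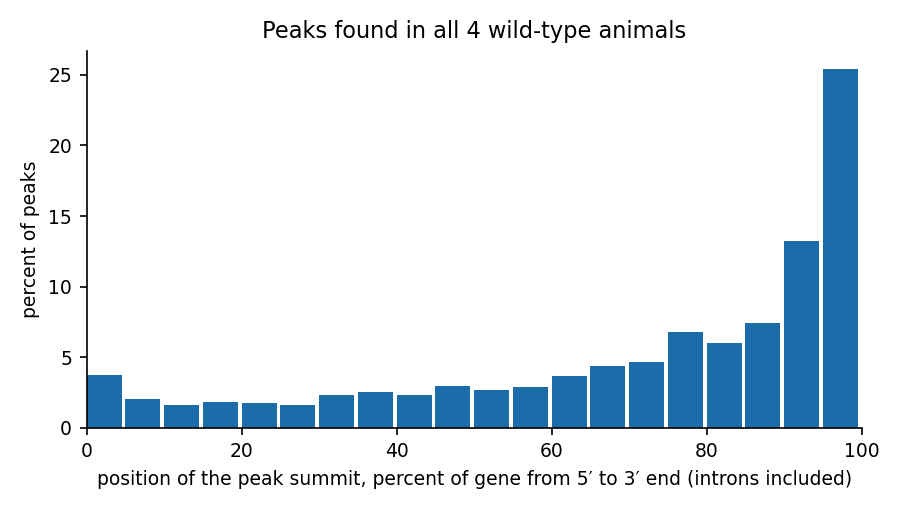
Position of the summits of 1034 peaks found in all 4 wild-type animals along their gene (x axis, percent of gene length from the 5′ to the 3′ end) as a percent of these peaks (y axis). The last bar, the end of the gene, holds 25.4% of the summits.

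Genes higher in the IP held most of the shared peaks, as 2 readouts of the same reads may be. Of protein-coding genes with a mean log2 CPM of at least 3, a shared peak lay in 559 of 2599 called higher (21.5%), in 65 of 3345 not called (1.94%) and in 12 of 2849 called lower (0.421%). Among those at least 2-fold higher 40.7% held one, so that most of even the strongly enriched genes had no peak found in every animal. Elmo2 held 8 shared peaks, and its strongest had its summits at chr2:165295434-165295447 with a fold of 6.04, 6.36, 5.70 and 7.83 in animals 1 to 4. Psap held 7, the strongest with summits at chr10:60300709-60300714 and folds of 6.26, 4.41, 12.2 and 6.67, highest in animal 3. That of Gng7 reached 7.95 at the median, with summits at chr10:80950817-80951522, 2271 bases from the end of the gene, and that of Bcl2l1 5.85, with summits at chr2:152781666-152781842, within the gene. Summits in noncoding genes, or where genes overlap as the gamma protocadherins do, were not counted.

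Whether this enrichment is particular to wild-type hippocampus was tested as the difference from the mean of both 5xFAD groups in a fit over all 24 libraries. Of 18300 genes, 413 (2.26%) differed at an edgeR adjusted p below 0.05, 19 (0.104%) with a higher and 394 (2.15%) with a lower ratio in wild-type. Gfap, the intermediate filament gene of astrocytes, had the smallest p. Its log2 IP minus input was 0.02, 0.63, 0.72 and 0.10 in wild-type animals 1 to 4, 1.45 to 1.93 in vehicle and 1.91 to 2.25 in MS1262 animals, with no overlap (difference −1.56, SE 0.15, edgeR adjusted p = 0.000181). Sgta, a co-chaperone gene, was enriched in all groups but less in wild-type (1.18 ± 0.236 against 2.29 ± 0.0953 in vehicle, SD, n = 4). Reep2, Crip2 and Nosip differed by −1.68, −1.54 and −1.46, and Crip2 was lower in the IP in wild-type animals (−0.69 ± 0.202) and higher in vehicle animals (0.83 ± 0.348). Arc differed by −1.14 (SE 0.20, edgeR adjusted p = 0.00523).

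None of the 23 genes examined here among those with the largest wild-type ratios passed this test of a difference, which does not show that they are alike. Of the 82 ribosomal protein genes 3 passed, of the 81 oxidative phosphorylation genes 6, of the 15 mitochondrially encoded and 20 protocadherin gamma genes none. Vehicle animal 4, which stood apart, had a log2 ratio of −4.07 for mt-Rnr1, against −2.17 to −1.86 in the other vehicle animals. Without it 1045 of 18589 genes differed (5.62%), 225 (1.21%) with a higher and 820 (4.41%) with a lower ratio in wild-type, and all 413 were among them. Then 6 ribosomal protein genes passed, 10 oxidative phosphorylation genes, mt-Nd4l (higher in wild-type by 0.33) and 2 of the 23 genes, Dpm3 (−0.95) and Rplp1 (−0.64). The count of differing genes was unstable also to other choices: 2 without the animal as a block, 831 with DESeq2, 136 without wild-type animal 1, 266 without animal 3 and 146 without animal 4. The wild-type animals received no vehicle, so genotype and dosing cannot be told apart.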

How the data were processed

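Hippocampal poly(A) RNA of 4 untreated wild-type mice was measured as 1 input and 1 m6A IP library per animal. The authors deposited estimated counts and TPM for each gene. Among the tools in the submitters' processing notes are Salmon 1.4.0, which estimates such values, the aligner STAR 2.7.6a and the peak caller MACS2 2.1.2, and the build is GRCm38 (mm10). Of the deposited estimated counts above 0, 22.1% were not whole, and all were rounded. The protocol in the labels names no fragmentation before the antibody step and no molecular identifiers. Per the file headers, the authors called peaks for each animal against its own input at a q cutoff of 0.5, with duplicates at 35 to 50% of IP and 51 to 59% of input tags. Each deposited peak carries its pileup signal, −log10 p and −log10 q values and fold enrichment, which served here for description and for a stricter q filter alone.

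The 8 libraries were fitted with edgeR 4.0.16 (R 4.3.3), TMM scaling and the animal as a block. Genes passed filterByExpr by fraction at a minimum count of 10, the quasi-likelihood F test was 2-sided, and p-values were adjusted by Benjamini-Hochberg over all genes tested with a threshold of 0.05. Pairing comes from the protocol, which splits each animal's RNA; deviations of IP and input of an animal from their group means correlated at 0.533 to 0.673, although the IP of animal 3 correlated best with another animal's input. With 3 residual degrees of freedom, the median biological coefficient of variation was 0.135. Per-animal ratios correlated at 0.558 to 0.598 (Spearman) between animals. The scripts were tested on simulated data. The p-values measure the spread of the IP to input ratio among these 4 mice, which includes that of preparing 1 library of each kind per animal. edgeR moderated this spread by that of other genes, with 12.8 prior degrees of freedom.

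The tested difference from 5xFAD used all 24 libraries. CPM values are TMM-scaled unless stated and not corrected for length. The marker values given beside the library totals are scaled to library size alone. Alternatives were no block, DESeq2 1.42.0 and its size factors, library size alone, no filter, limma 3.58.1 on log2(TPM + 1) and log2(TPM + 0.1), each animal left out, all 24 libraries in 1 fit and, added after the data were seen, 5xFAD vehicle animal 4 left out. Merged peaks overlap by at least 1 base. Gene positions are RefSeq's for GRCm38.p6, with 15660 of the tested symbols matched. Named genes were the 12 largest ratios each way (mean log2 CPM of at least 3, same sign in all animals, predicted genes and pseudogenes passed over), 3 noncoding genes each way, up to 4 members of smallest p in described lists, a fixed set of 14 genes, 5 genes of smallest p for the 5xFAD difference, and 5 with intervals within 0.25 of 0; further members of short lists were named after their values were seen. Some genes that this rule names are not reported here. The members and lists were chosen with earlier results of these data known.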

Additional observations from a re-analysis of the deposited data

Results flagged for a closer look

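In 98 groups of 4 animals searched for a value that stands apart, 4 had one, and chance gives about 1 in 20. Canx was depleted least in animal 2 (log2 −1.55, others −1.92 to −1.87). Camk2a was enriched least in animal 4 (0.30, others 0.70 to 0.77). The IP of animal 1 kept the most counts of the mitochondrial genome, 7.17% against 5.09 to 5.35%, and the fewest of protein-coding nuclear genes, 90.5% against 92.4 to 92.6%.

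Enrichment differed between wild-type and 5xFAD, by the interaction test, most clearly for Gfap (−1.56), Sgta (−1.18), Reep2 (−1.68, a membrane-shaping protein of the endoplasmic reticulum), Crip2 (−1.54) and Nosip (−1.46), all lower in wild-type.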

How the results depend on the processing

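Calls over all genes stayed within 1.5 times of 7205 under every alternative run, from 5077 with no replicate block to 8684 with limma on log2(TPM + 0.1), and from 5958 to 6559 with an animal left out. Their direction depended on the scaling. Genes higher numbered 8087 and 8099 on log2(TPM + 1) and log2(TPM + 0.1), and genes lower 2138 with library size alone and 584 and 585 on the TPM scales, where the median of all genes stood at 0.38 and 0.52. DESeq2 gave 3470 higher and 3533 lower.

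Among 142 named genes signs turned on the TPM scales and, for mt-Nd4l (0.0054), with library size alone. At a pseudocount of 1 and of 0.1 the log2 ratios were 0.21 and 0.22 for Snhg14, 0.0283 and 0.0399 for Pcdha12, 0.14 and 0.15 for Wtap, 0.0219 and 0.0259 for Alkbh5, 0.31 and 0.31 for Actb, 0.46 and 0.55 for Arc, 0.0316 and 0.0317 for App, 0.51 and 0.52 for Hspa8, 0.49 and 0.49 for Gpm6a, 0.0822 and 0.0868 for Mcl1, 0.37 and 0.37 for mt-Nd4l, 0.11 and 0.11 for mt-Nd5, 0.0956 and 0.0956 for mt-Nd6, and 0.0736 and 0.0791 for Ythdf1. Of these genes only Arc, Hspa8 and Gpm6a lay above the median of all genes, 0.38, at a pseudocount of 1. At 0.1 only Arc lay above the median there, 0.52. On each TPM scale a further 16 calls ended and 7 began, and with library size alone 3 ended and 7 began. The shortest decile of genes stood at 0.11 on log2(TPM + 1). With no replicate block 9 calls ended (Mir124-2hg, Pcdha12, Pcdhb6, Fcrls, Itm2a, Actb, Map2, Gfap and mt-Nd4l). With an animal left out, Pcdha12, Mettl3, Gfap and mt-Nd4l lost their calls and Pcdhac1 gained one. Counts of list members called in the more frequent direction moved by over 1.5 times in 36 of 41 lists on each TPM scale, 18 with no replicate block, 12 with library size alone, and 0 with DESeq2 or no filter.

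The difference from 5xFAD gave 2 genes (0 higher, 2 lower in wild-type) with no replicate block, 181 (5 and 176) against vehicle alone, 705 (62 and 643) without a filter, 831 (130 and 701) by DESeq2, 136 to 321 (1 to 28 and 134 to 293) with a wild-type animal left out, and 1045 (225 and 820) without 5xFAD vehicle animal 4, an alternative chosen after seeing the data; the cause was not tested. The fall in the share of the mitochondrial genome was −12.05 percentage points in TPM and that of oxidative phosphorylation genes −0.799. Shared peaks numbered 1171 at q below 0.01, 1371 at an overlap of 0.5 of either peak, and 1503 to 1937 in the other 3 animals with an animal left out. Depth limits genes of low input level, which need larger ratios to pass.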
